A study of Mus musculus with 8 samples.

Results

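The imprinted domain on mouse chromosome 17 that holds Airn, Igf2r and Pnldc1 was read allele by allele in single mouse blastocysts. The members were the 3 genes of those symbols among 22810 genes with counts, and they were chosen by name. Each embryo came from a natural mating between the strains C57BL/6 (B6) and Mus musculus castaneus (cast), and was taken at embryonic day 3.5 with no culture in vitro. The forward cross had a B6 mother and a cast father (3 embryos, numbered 1, 2 and 3). The reverse cross had a cast mother and a B6 father (5 embryos, numbered 1, 2, 3, 5 and 7). No embryo carried a deletion or received a treatment, and each library is 1 whole blastocyst, so trophectoderm and inner cell mass were read together. A read was assigned to an allele where it spanned a single nucleotide polymorphism (SNP), so the maternal allele was B6 in the forward and cast in the reverse cross.

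Imprinted genes are expressed according to the parent that transmitted the allele. Igf2r encodes the cation-independent mannose 6-phosphate receptor, which carries lysosomal enzymes to lysosomes and removes the growth factor IGF2 from the cell surface, and in most later mouse tissues it is expressed from the maternal allele. Airn is a long noncoding RNA that starts in an intron of Igf2r and is transcribed antisense to it from the paternal allele, where it silences Igf2r in cis. The Airn promoter lies in a region that is methylated on the maternal allele in the oocyte. Pnldc1, farther along the chromosome, encodes a PARN-like exonuclease that trims piRNA precursors in germ cells.

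In the mm10 build, Airn (ENSMUSG00000078247.4) occupies chr17:12741311-12860136 on the plus strand. Igf2r (ENSMUSG00000023830.14) occupies chr17:12682406-12769664 on the minus strand, and Pnldc1 (ENSMUSG00000073460.5) occupies chr17:12888729-12910230, also on the minus strand. Airn and Igf2r share 28354 bases of span, including the Igf2r start, and Pnldc1 begins 28593 bases beyond the Airn end. No base lies in annotated exons of both genes, but 519 of the 9308 exon bases of Igf2r (5.58%) lie inside the Airn span. The sources used here do not state whether reads were counted by strand, and without strand the reads of Airn and those of the introns and exons of Igf2r that it crosses cannot be told apart.

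Promoter windows are shown for Airn and Igf2r, the 2 of the 3 members with a matched RefSeq window. They run from 250 bases before to 50 bases after the RefSeq start (GRCm38.p6), and capitals mark each CpG, the dinucleotide that is methylated. Airn lies at chr17:12741061-12741360 (plus strand) and Igf2r at chr17:12769657-12769956 (minus strand). No window was matched for Pnldc1.
Airn: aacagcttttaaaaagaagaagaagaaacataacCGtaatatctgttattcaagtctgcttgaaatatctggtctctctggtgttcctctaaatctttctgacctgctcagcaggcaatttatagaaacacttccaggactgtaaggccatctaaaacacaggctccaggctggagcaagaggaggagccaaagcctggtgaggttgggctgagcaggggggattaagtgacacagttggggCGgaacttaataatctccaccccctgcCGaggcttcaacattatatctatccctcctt
Igf2r: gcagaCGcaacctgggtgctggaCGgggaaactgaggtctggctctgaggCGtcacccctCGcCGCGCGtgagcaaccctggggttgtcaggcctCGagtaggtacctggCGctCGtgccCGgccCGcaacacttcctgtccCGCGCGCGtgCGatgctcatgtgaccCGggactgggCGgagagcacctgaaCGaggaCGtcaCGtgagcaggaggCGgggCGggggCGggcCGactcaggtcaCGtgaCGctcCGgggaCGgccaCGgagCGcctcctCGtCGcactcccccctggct
The Airn window held 3 CpGs and the Igf2r window 34, against a median of 7 over 32851 promoter windows of the same length. The share of those windows with fewer CpGs was 23.3% for Airn and 92.3% for Igf2r. The motif TGCCGC, the core bound by the imprint maintenance factor ZFP57 when methylated, was searched on both strands. It was in neither window and in 11.6% of all windows.

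The libraries held 1060063 to 1632695 SNP-spanning reads per embryo. The B6 allele took 57.4% to 58.3% of them, and 5609 genes had at least 20 reads in each embryo. Their median share of paternal reads averaged 44.5% over the forward embryos (SD 0.197, n = 3) and 55.7% over the reverse embryos (SD 0.638, n = 5). These medians are the background for every share below. Markers of trophectoderm, epiblast and primitive endoderm were detected in all 8 embryos. The forward 1 library stood apart with 894.2 CPM (reads scaled to a common library total) summed over 13 leukocyte and macrophage markers, against 3.77 to 57.1 CPM in the other embryos. The reverse 1 library had 1298 CPM over 8 trophectoderm markers, against 3942 to 4157 CPM in the other reverse embryos and 4241 to 5299 CPM in the forward embryos. In whole embryos, fewer cells of a type and less RNA per cell cannot be told apart. Nothing in the labels says that the embryos of a cross came from separate litters, so p-values measure the spread between these embryos only. Intervals are exact 95% binomial (Clopper-Pearson) and cover counting error alone, since the reads carried no molecular identifiers.

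Airn, the noncoding RNA, was read almost wholly from the paternal allele in both crosses. The forward embryos had 8 maternal and 111 paternal reads (embryo 1), 4 and 147 (embryo 2), and 1 and 55 (embryo 3). The reverse embryos had 12 maternal and 83 paternal reads (embryo 1), 14 and 45 (embryo 2), 3 and 55 (embryo 3), 2 and 103 (embryo 5), and 1 and 88 (embryo 7). Paternal reads exceeded maternal reads in 8 of 8 embryos, and the lowest paternal count, 45, was above the highest maternal count, 14. Its paternal share averaged 96.3% ± 2.64 (SD, n = 3) over forward embryos and 91.1% ± 9.45 (SD, n = 5) in the reverse cross. With cast and B6 in turn as the paternal allele, the direction followed the parent and not the strain.

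Across all autosomal genes with at least 10 reads in 1 or more allele libraries, edgeR's quasi-likelihood test found a parental bias (adjusted p of at most 0.1) in 178 of 12566 genes, 1.42%, and in the paternal direction in 1.11%. Of the 3 members, 2 passed, Airn and Igf2r, both in the paternal direction. The log2 fold change of Airn, paternal over maternal, was 4.13 ± 0.44 (SE, adjusted p = 2.55e-06, edgeR). An exact sign-flip permutation test over the 8 embryos gave p = 0.00781, the smallest that 8 embryos allow (2-sided, 1 of 3 such tests, mean log2 ratio 4.20).

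**Figure D1:**
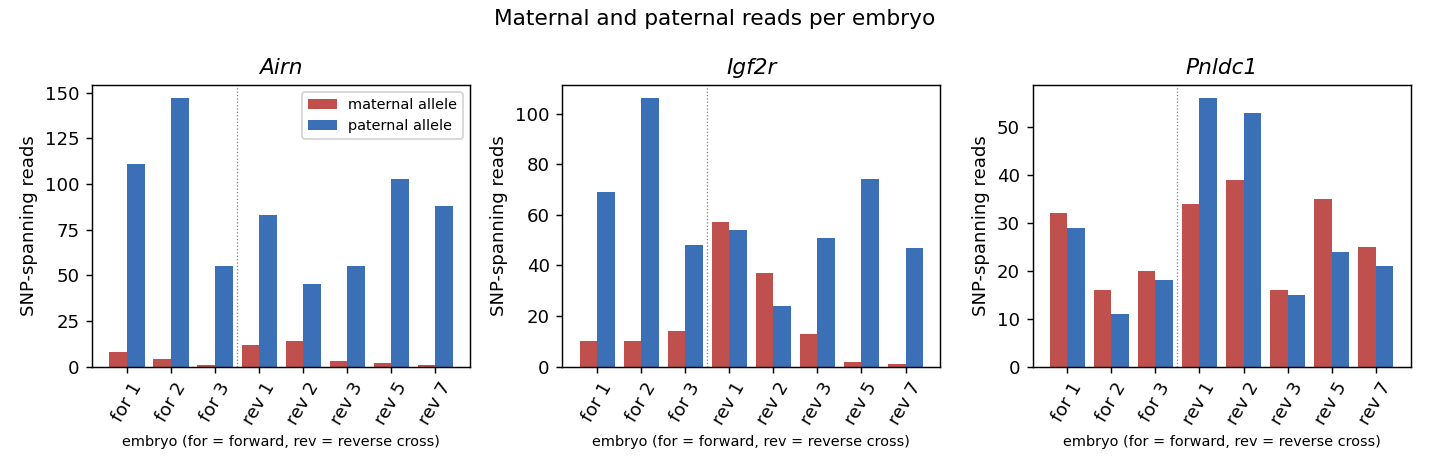
Maternal and paternal SNP-spanning reads (vertical axis, a separate scale in each panel) of Airn, Igf2r and Pnldc1 in each embryo (horizontal axis, the dotted line divides the forward from the reverse cross). Paternal Airn reads run from 45 to 147 and maternal ones from 1 to 14, while maternal Igf2r reads are 57 and 37 in reverse embryos 1 and 2 and 14 or fewer in the other 6.

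Igf2r, the receptor gene, had more paternal than maternal reads in 6 of 8 embryos. The forward embryos had 10 maternal and 69 paternal reads (embryo 1), 10 and 106 (embryo 2), and 14 and 48 (embryo 3). The reverse embryos had 57 maternal and 54 paternal reads (embryo 1), 37 and 24 (embryo 2), 13 and 51 (embryo 3), 2 and 74 (embryo 5), and 1 and 47 (embryo 7). The 2 embryos with at least as many maternal as paternal reads were reverse 1 and reverse 2. The highest maternal share of Igf2r in any embryo was 60.7% (95% interval 47.3 to 72.9%), in reverse 2.

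The paternal share of Igf2r averaged 85.4% ± 7.18 (SD, n = 3) over forward embryos and 72.6% ± 27.3 (SD, n = 5) in the reverse cross. Within the reverse cross it ran from 39.3% (95% interval 27.1 to 52.7%) in embryo 2 and 48.6% (39.0 to 58.3%) in embryo 1 to 97.4% (90.8 to 99.7%) in embryo 5 and 97.9% (88.9 to 99.9%) in embryo 7. The intervals of reverse embryos 1 and 2 overlapped each other and lay wholly below those of the other 6 embryos.

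The log2 fold change of Igf2r, paternal over maternal, was 2.02 ± 0.50 (SE, adjusted p = 0.0478, edgeR). The call was not stable to the embryos used. It was lost without forward embryo 1 (adjusted p = 0.189), forward 2 (0.378), forward 3 (0.108), reverse 3 (0.123) or reverse 5 (0.101), and kept without reverse 1 (0.00535), all by edgeR. When the 2 alleles of each embryo were paired by a block, the number of called genes rose to 391 while Igf2r stayed called (adjusted p = 0.00784). The sign-flip test gave p = 0.0313 (exact permutation test, 2-sided, mean log2 ratio 2.37).

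**Figure D2:**
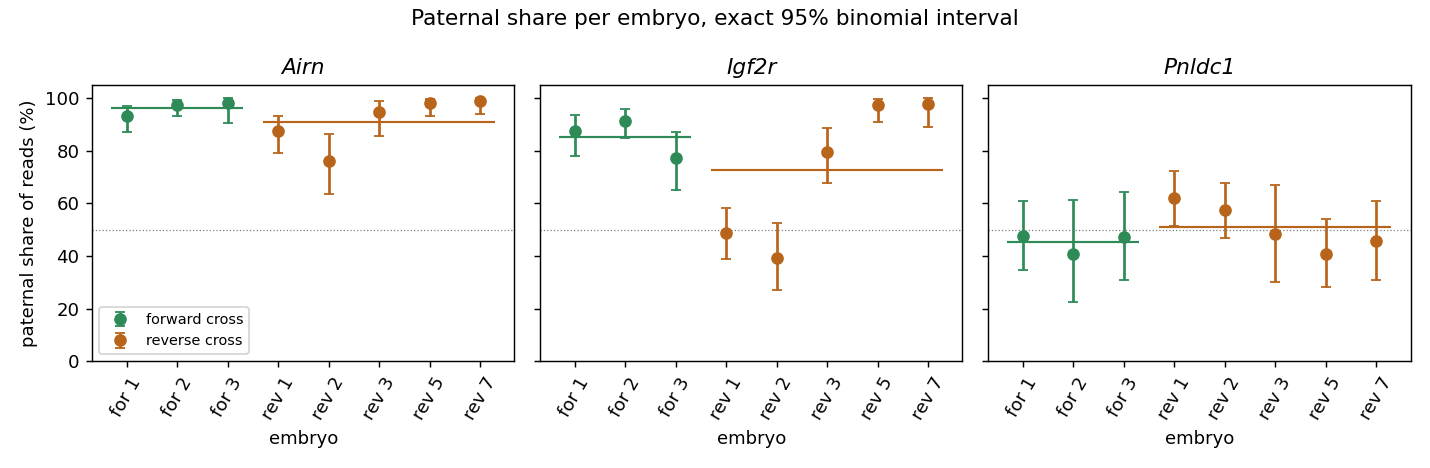
Paternal share of reads in percent (vertical axis) for each embryo (horizontal axis), with exact 95% binomial intervals as bars and the mean of each cross as a line. Airn stays at 76.3% or above, Igf2r runs from 39.3% to 97.9%, and Pnldc1 lies between 40.7% and 62.2%.

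Pnldc1, the exonuclease gene, was read from both alleles. The forward embryos had 32 maternal and 29 paternal reads (embryo 1), 16 and 11 (embryo 2), and 20 and 18 (embryo 3). The reverse embryos had 34 and 56 (embryo 1), 39 and 53 (embryo 2), 16 and 15 (embryo 3), 35 and 24 (embryo 5), and 25 and 21 (embryo 7). Paternal reads were higher in 2 of 8 embryos, again reverse 1 and reverse 2, by at most 22 reads. Its paternal share averaged 45.2% ± 3.88 (SD, n = 3) over forward embryos and 50.9% ± 8.83 (SD, n = 5) in the reverse cross, beside the medians over all genes of 44.5% and 55.7%.

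The log2 fold change of Pnldc1 was -0.07 ± 0.35 (SE, adjusted p = 1, edgeR). A pair of 1-sided edgeR tests placed its parental fold within a 2-fold margin (adjusted p = 0.0405), as it did for 4446 of 12566 genes, 35.4%. That call was lost without forward embryo 1 (adjusted p = 0.129) or forward 3 (0.120), and with a 1.5-fold margin (0.489), all by edgeR.

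The criteria for blastocyst-skewed expression (BsX: an adjusted p of at most 0.1 with a log2 fold change beyond 0.5 either way, both crosses agreeing in direction, each with 20 reads or more) were met by Airn and Igf2r, against 0.883% of tested genes in the paternal direction. The stricter criterion of blastocyst-imprinted expression (BiX) adds a ratio of 70:30 that 60% or more of the forward and of the reverse embryos must reach, which 0.74% of tested genes met in the paternal direction. These calls rest on edgeR, and the study's further filters, on robust expression and on reads that can be assigned to a single transcript, were not applied here. The latter bears on Airn and Igf2r, which overlap. Airn passed the ratio in 3 of 3 forward and 5 of 5 reverse embryos. Igf2r passed it in 3 of 3 forward and 3 of 5 reverse embryos, exactly the minimum. At 80:20, Igf2r passed in 2 of 3 and 2 of 5 embryos and no longer met the rule, whereas Airn still did, in 3 of 3 and 4 of 5. Pnldc1 passed in no embryo.

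Reverse embryos 1 and 2 held most of the maternal reads of both Airn and Igf2r. Of the 45 maternal Airn reads in the study, 26 were theirs, and of the 144 maternal Igf2r reads, 94. The maternal share of Airn was 12.6% (95% interval 6.70 to 21.03%) in reverse 1 and 23.7% (13.6 to 36.6%) in reverse 2, and 1.12% to 6.72% in the other 6 embryos. For comparison, the reads of the 9 other genes on a list of paternally expressed genes that passed the parental test (Kcnq1ot1, Snrpn, Snurf, Peg3, Mcts2, Nespas, Zdbf2, Fkbp6 and Slc38a4) were summed. Passing that test over the same embryos favours genes with few maternal reads, so these values are a description only. Snrpn and Snurf had nearly equal paternal counts in each embryo, so some of their reads may enter the sum under both names. The maternal share of the 9 genes was 0.285% in reverse 1 and 0.273% in reverse 2, with 3 maternal reads in each. In the forward embryos their maternal share was 7.74%, 6.06% and 3.07%, above that of Airn in each. That order leans on Fkbp6, which gave 23 of 58, 19 of 30 and 11 of 17 of these maternal reads. Kcnq1ot1 gave 30 in forward 1. Fkbp6 also differed by strain toward B6, the maternal allele there (log2 cast over B6 -1.62, adjusted p = 0.0363, edgeR). The leukocyte and macrophage markers of the forward embryos were also read mainly from the maternal allele, at 99.8%, 100% and 90.4% of 1460, 50 and 73 reads. The part of these markers in the maternal shares was not tested.

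Other levels in reverse embryos 1 and 2 were as follows. The low trophectoderm level was in reverse 1 alone, since reverse 2 had 4157 CPM. Leukocyte and macrophage markers (13 of 13 in the counts) had 9.97 and 5.63 CPM in reverse 1 and 2, against 3.77 to 6.01 CPM in the other reverse embryos. Cumulus markers (6 of 9) had 5.98 and 7.51 CPM, against 4.50 to 8.49 CPM, and oocyte markers (8 of 9) 9.97 and 12.5 CPM, against 14.7 to 19.5 CPM. Epiblast markers (7 of 7) had 601.9 and 484.2 CPM, against 375 to 485.8 CPM. Primitive endoderm markers (7 of 7) had 544.1 and 403.5 CPM, against 394.3 to 987 CPM. Red blood cell markers (3 of 7) had 51.2 and 24.4 CPM, against 2.67 to 24.8 CPM. Nearly all of these reads were of Alas2 alone (199 maternal and 6 paternal reads over the 8 embryos). Alas2 lies on the X chromosome, and the paper states that the embryos were not matched for sex. Its maternal excess was therefore not read as a parental bias. Hbb-bs had 2 maternal reads and Slc4a1 had 1 paternal read, so this level is that of 1 gene. Markers of uterine and oviduct epithelium (7 of 8) had 104.3 and 84.5 CPM, against 91.4 to 119.8 CPM. No gene of these lists in the counts was at 0 over all embryos. The part of these levels in the maternal reads was not tested.

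**Figure D3:**
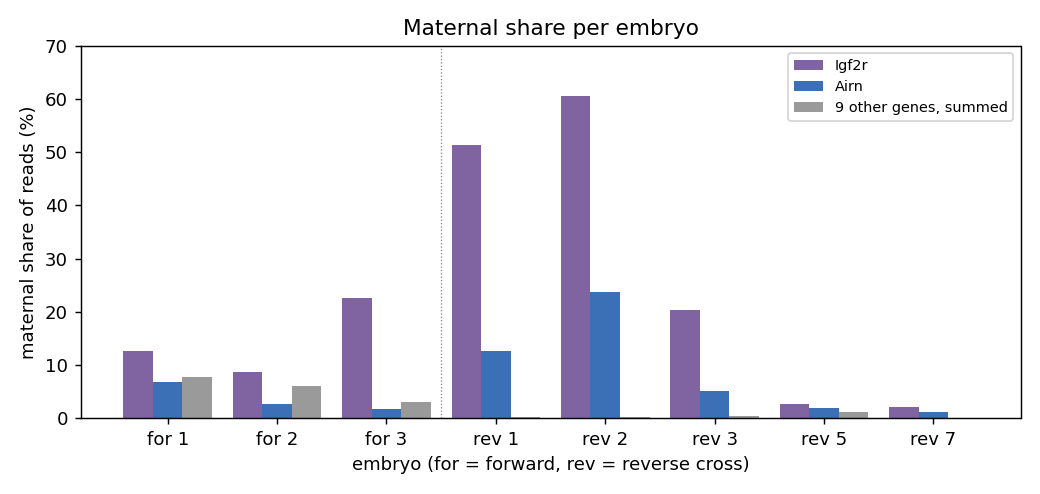
Maternal share of reads in percent (vertical axis) of Igf2r, of Airn and of 9 other paternally expressed imprinted genes summed, in each embryo (horizontal axis). In reverse embryos 1 and 2 Igf2r reaches 51.4% and 60.7% and Airn 12.6% and 23.7%, while the 9 other genes, chosen because they passed the parental test, are at 0.285% and 0.273%.

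Paternal Igf2r reads followed paternal Airn reads from embryo to embryo. Paternal Airn was lowest in reverse 2, at 28.2 CPM, and highest in forward 2, at 127.6 CPM, and the same embryos had the lowest and highest paternal Igf2r, 15.0 and 92.0 CPM. Over the 8 embryos Pearson's r was 0.946 (exact permutation p = 0.000794, adjusted 0.00159 over 2 relations) and Spearman's rho 0.952 (exact permutation p = 0.00114, adjusted 0.00228). Without those 2 embryos, the farthest from the median in Airn, r was 0.793 (n = 6), and within the reverse cross r was 0.877 (n = 5). The forward cross, with 3 embryos, was too small for a value of its own. Both levels share the depth of the library, and the spans of the genes overlap, so reads from the shared span could enter both.

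Maternal Igf2r reads did not follow paternal Airn in this way. Pearson's r was -0.40 (exact permutation p = 0.307, adjusted 0.307) and Spearman's rho -0.55 (exact permutation p = 0.171, adjusted 0.171), and r stayed at -0.40 without the 2 embryos (n = 6). Within the reverse cross r was -0.52 (n = 5). The maternal relation did not pass with 8 embryos, and the difference between the paternal and the maternal relation was not tested.

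Igf2r made up a larger part of the maternal than of the paternal reads of the pair. Of the Airn and Igf2r reads on the paternal allele, Igf2r made up 34.8% to 48.1% (median 40.6%) over the 8 embryos. Of those on the maternal allele it made up 50% to 93.3% (median 72.0%). Several of these maternal values rest on few reads. Both values of 50% came from reverse 5 and reverse 7, with 4 and 2 maternal reads of the pair. The forward embryos and reverse 3 had 14 to 18. In reverse 1, Igf2r made up 82.6% (95% interval 71.6 to 90.7%) of the 69 maternal reads of the pair. It made up 39.4% (31.2 to 48.1%) of the paternal reads of the pair. In reverse 2, with 51 maternal reads of the pair, these parts were 72.5% (58.3 to 84.1%) and 34.8% (23.7 to 47.2%). In forward 3, with 15 maternal reads of the pair, they were 93.3% (68.1 to 99.8%) and 46.6% (36.7 to 56.7%). The intervals of the alleles did not overlap in these 3 embryos and overlapped in the other 5.

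**Figure D4:**
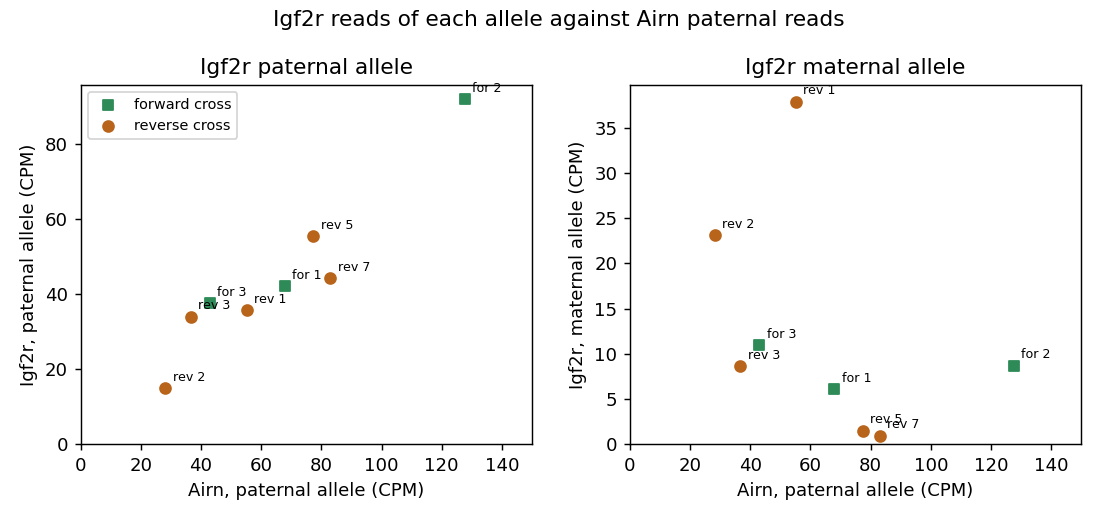
CPM of the paternal (left) and maternal (right) allele of Igf2r on the vertical axes against CPM of the paternal allele of Airn on the horizontal axes, 1 point per embryo. The paternal points rise together from reverse 2 to forward 2 (r = 0.946), while on the maternal side reverse 1 and 2 lie highest at 37.9 and 23.1 CPM.

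Some other overlapping pairs in the counts gave nearly equal values and some did not (pairs chosen after their values were seen). Kcnq1 and the antisense Kcnq1ot1 inside it had 1464 and 1458 reads in all, with equal counts in 13 of 16 allele libraries and a largest difference of 4 reads. Tcp1 and Acat3, whose ends overlap on opposite strands, had 3635 and 3600 reads, with a largest difference of 9. Tcp1 and Mrpl18, which also overlap on opposite strands, had 3635 and 1624. Airn and Igf2r had 732 and 617 reads, equal counts in 2 of 16 allele libraries and a largest difference of 45 reads. Of the other genes that overlap a member, Mas1, a receptor gene on the minus strand whose exons lie partly within the Airn span (2290 exon bases), had 7 reads, all paternal. The 5 small transcripts and pseudogenes inside Airn (Gm23833, CT030636.1, CT030636.2, Gm16574 and Gm7162) and AL589878.1 inside Pnldc1 had no row of their own.

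Neither the strain of the allele nor the cross gave a call for any of the 3 members. Each allele library was scaled to its own total, which removes the larger B6 share of reads, so the strain values are relative to the other genes. On that log2 scale cast over B6 was 0.82 ± 0.41 for Airn (SE, adjusted p = 0.227, edgeR), 1.01 ± 0.49 for Igf2r (adjusted p = 0.216) and 0.16 ± 0.35 for Pnldc1 (adjusted p = 0.850), where 15.4% of tested genes passed. With no filter on low counts Igf2r passed this test (adjusted p = 0.0744, edgeR). In this fit the strain term also tests whether the parental fold differs between the crosses. The mean paternal share in the reverse minus that in the forward cross was -5.19 percentage points for Airn (exact permutation p = 0.536) and -12.8 points for Igf2r (exact permutation p = 0.571). For Pnldc1 it was 5.69 points (exact permutation p = 0.429), where 3 against 5 embryos allow no p below 0.0357. The shares of the 2 crosses overlapped for each of the 3 genes.

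Summed over both alleles, Airn had 43.8 to 131.1 CPM in the forward and 36.9 to 84.0 CPM in the reverse embryos. Igf2r had 48.4 to 100.7 and 38.2 to 73.7 CPM, and Pnldc1 23.4 to 37.4 and 20.7 to 59.8 CPM. The log2 fold change of the reverse over the forward cross was -0.45 ± 0.40 for Airn (SE, adjusted p = 0.817, edgeR), -0.35 ± 0.36 for Igf2r (adjusted p = 0.850) and 0.56 ± 0.38 for Pnldc1 (adjusted p = 0.753), where 9 of 13079 genes passed, 0.0688%. Without forward embryo 2 the values of Airn and Igf2r were 0.050 and 0.083. Reads per gene depend on its SNPs, so these levels were not compared between genes.

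Around the domain, no other gene passed the parental test. Of 14 genes with counts within 250 kb of a member, 7 were tested and none passed, with a median log2 fold change of 0.05 beside -0.01 over all tested genes. Within 1 Mb of Airn none of 15 passed, and within 10 Mb none of 82, beside 1.42% of all tested genes. At an unadjusted p under 0.05, edgeR counted 0 of the 15 and 7 of the 82, beside 7.31% of all tested genes, and DESeq2 called 0 of the 15 and 1 of the 82, Ttll2. With a term for each embryo, 2 genes of the 82 passed, both in the paternal direction, beside 391 of all 12566 tested genes in that fit. Ezr, encoding the membrane linker ezrin, had 1214 paternal and 517 maternal reads (adjusted p = 0.0783, edgeR). Ttll2, a tubulin ligase-like gene, had 83 and 11 (adjusted p = 0.0726, edgeR). Ezr had more paternal reads in 8 of 8 embryos. A fixed list of 48 genes on chromosome 17 near the domain, 32 of them tested, had none past the threshold by edgeR or DESeq2. By edgeR, 4 of the 32 had an unadjusted p under 0.05, beside 7.31% of all tested genes. Inside the 2-fold margin were 13 of the 32, beside 35.4% of all tested genes.

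The transporter genes Slc22a2 and Slc22a3, which Airn silences in placenta, had too few reads to be tested. Slc22a2 had 1 read and Slc22a3 had 3 maternal and 7 paternal reads over the 8 embryos, and Mrgprh had 4. At this depth an allelic bias was not detectable in any of them.

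On the Pnldc1 side the tested neighbours other than Unc93a were expressed from both alleles. Mrpl18, a mitochondrial ribosomal protein gene, had 777 paternal and 847 maternal reads, and Tcp1, encoding a chaperonin subunit, 1936 and 1699. Sod2, the mitochondrial superoxide dismutase gene, had 371 and 414, and Acat2, an acetyl-CoA acetyltransferase gene, 280 and 337. For Mrpl18, Tcp1, Acat3, Acat2, Wtap and Sod2 the parental fold lay within the 2-fold margin (adjusted p from 0.0171 to 0.0686, edgeR). Wtap, which encodes a subunit of the RNA methyltransferase complex, had a mean paternal share of 17.8% ± 5.91 (SD, n = 3) with the B6 mother and 81.4% ± 8.77 (SD, n = 5) with the cast mother. It differed by strain, with a cast over B6 log2 ratio of -1.84 (adjusted p = 0.00121, edgeR), and of the 7 tested neighbours it alone passed that test. Unc93a had 49 paternal and 17 maternal reads, with a log2 fold change of 1.57 ± 0.86 (SE, adjusted p = 0.825, edgeR). Paternal reads were higher in 5 of the 5 embryos that held at least 5 of its reads. Its fold was not placed within the 2-fold margin (adjusted p = 0.827, edgeR), so its allelic state was not settled.

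**Figure D5:**
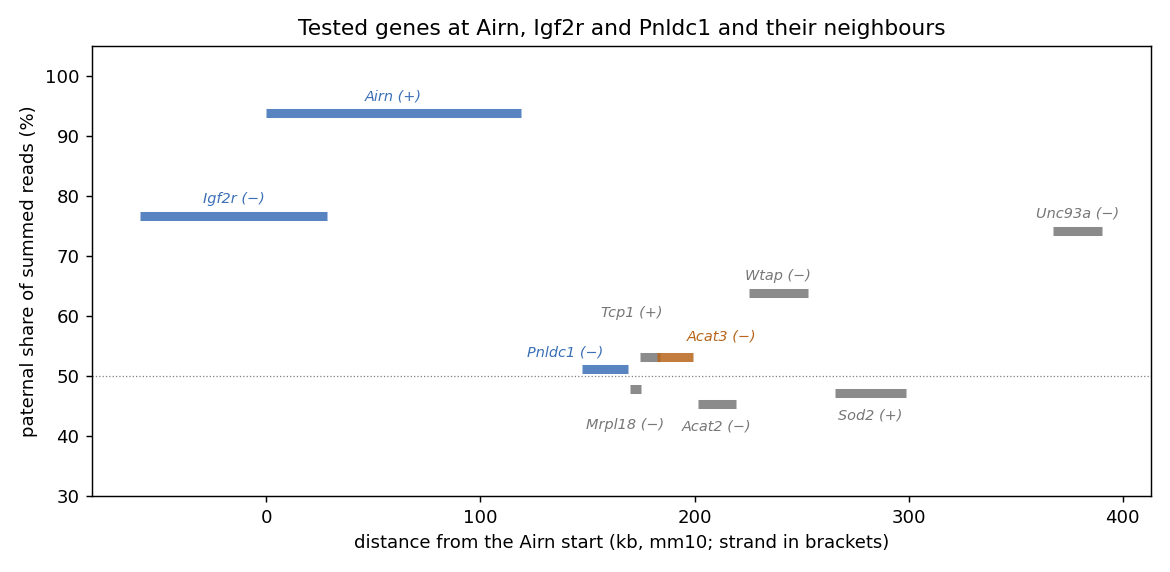
Paternal share of the reads summed over 8 embryos (vertical axis, from 30%) of the 10 tested genes within 250 kb of Airn, Igf2r or Pnldc1, each drawn as a bar over its span at its distance in kb from the Airn start (horizontal axis), with its strand. Airn (93.9%) and Igf2r (76.7%) are high, Pnldc1 (51.1%) lies at the level of its neighbours Mrpl18 to Acat2, Unc93a (74.2%, not called) is near Igf2r, and the bars of Tcp1 and Acat3 meet at 53.3% and 53.2%.

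Airn was 1 of a list of imprinted genes known as paternally expressed, most of them next to a germline differentially methylated region. Of 18 tested, 10 passed in the paternal direction, Airn included, beside 1.11% of all tested genes. The median log2 fold change over the 18 was 4.43, beside -0.01 over all tested genes. It was 4.25 with genes at 0 on an allele set to the bound that 3 reads give. Among the 10, Snrpn (196 paternal and 8 maternal reads) and Snurf (185 and 0) had nearly equal paternal counts in each embryo. They may share reads and were counted as separate genes. Kcnq1ot1, the antisense RNA of the Kcnq1 domain, had 1422 paternal and 36 maternal reads. Slc38a4, an amino acid transporter gene, had 1528 and 3, and Peg3, a zinc finger gene, 261 and 3. Zdbf2 had 347 and 12. Rtl1, listed as paternally expressed, had 69 maternal and 0 paternal reads, where a count of 0 allows up to 3 reads, and was called in the maternal direction (adjusted p = 0.0516, edgeR), a call it lost when the alleles of an embryo were paired (adjusted p = 0.132).

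Igf2r is on the list of imprinted genes known as maternally expressed. Of 13 tested, 3 passed in the maternal direction, namely H19 (145 maternal and 0 paternal reads), Meg3 (76 and 1) and Rian (76 and 0), all noncoding RNAs. Over all tested genes, 1.42% passed in either direction and 1.11% in the paternal direction. All H19 reads came from the 3 forward embryos, where the maternal allele is B6, and its strain term passed too (adjusted p = 0.000885, edgeR), so parent and strain cannot be told apart for H19. Rian reached 5 reads in reverse embryos only, where the maternal allele is cast. Its strain term passed narrowly (adjusted p = 0.0983, edgeR), so the same limit holds for Rian. The 2 that passed in the paternal direction were Igf2r and Kcnq1, and both overlap an antisense noncoding RNA that was itself read paternally, Airn and Kcnq1ot1. Kcnq1 and Kcnq1ot1 had equal counts in 13 of 16 allele libraries, so the Kcnq1 call may rest on the same reads as that of Kcnq1ot1. The median log2 fold change of the 13 tested genes was -0.50, also with genes at 0 set to their bound. H19 and Rian lost their calls with a term for each embryo, where Igf2r, Meg3 and Kcnq1 kept theirs. In that fit H13 also passed, in the maternal direction (874 maternal and 568 paternal reads, adjusted p = 0.0923, edgeR).

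Genes that act with the members were counted against the shares over all tested genes, 1.42% past the parental test, 7.31% at an unadjusted p under 0.05 and 35.4% within the 2-fold margin. Of 12 tested IGF signalling genes, 1 passed, the H19 RNA of the Igf2 locus, and for 4 the fold lay within the 2-fold margin. Of 25 tested genes of mannose 6-phosphate sorting, the pathway that loads lysosomal enzymes onto the receptor, none passed by edgeR or DESeq2, 1 had an unadjusted p under 0.05, and 21 lay within the margin. Of 18 tested genes for Airn-mediated silencing and imprint maintenance, among them Polycomb, G9a and DNA methyltransferase components, none passed by edgeR or DESeq2, 1 had an unadjusted p under 0.05, and 11 lay within the margin. Dnmt1, the maintenance methyltransferase, had 670 paternal and 332 maternal reads and passed with a term for each embryo only (adjusted p = 0.0134, edgeR).

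On the piRNA list 2 of 12 tested genes passed the parental test, beside 1.42% of all tested genes. Fkbp6, a chaperone of piRNA loading, had 1193 paternal and 57 maternal reads (adjusted p = 1.9e-05, edgeR). Asz1 had 100 maternal and 1 paternal reads (adjusted p = 0.000195, edgeR), the direction opposite to Fkbp6. Pnldc1, which belongs to the same pathway, passed in neither direction, as above.

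The genes with paternal shares nearest to those of Airn over the 8 embryos, among 5608 with at least 20 reads in every embryo, were Rbms1, Runx1, Smyd2, Gab1 and Kcnq1ot1. Their root mean square distance to Airn was 7.52 to 9.57 percentage points per embryo. In reverse 2, where Airn was at 76.3%, they were at 88.9% to 99.4%. Igf2r was 32nd in that order, at 21.2 points. For Igf2r the nearest genes were Dnmt1, Airn, Wrap53, Tmco4 and Aard, at 20.9 to 24.1 points, so that no gene had a pattern close to it.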

How the data were processed

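The authors sequenced single blastocysts of reciprocal crosses by SMART-Seq2, a polyA method without molecular identifiers, aligned the reads to mm10 with STAR, dropped reads that map to several places and counted SNP-spanning reads per gene and strain with Allelome.Pro. The labels list STAR 2.5.2b and SAMtools 1.9-92. The deposited values are whole-number counts, not normalized, for 8 embryos and 2 alleles (16 allele libraries). Strand use and annotation are not given in the sources used here. The authors' removal of 2 reverse embryos preceded deposit.

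Groups came from the sample titles. Allele libraries were fitted with edgeR 4.0.16 (R 4.3.3, quasi-likelihood, TMM, terms for strain and parent, Benjamini-Hochberg, threshold 0.1) over autosomal genes with at least 10 reads in 1 or more libraries. The equivalence test used a log2 margin of 1. Summed alleles were compared between crosses in the same way. Scripts were tested on simulated data. CPM values are reads over all SNP-spanning reads of the embryo, times 1000000. Log2 ratios by embryo used a pseudocount of 0.5. The exact permutation tests (SciPy 1.17.1) ran once per member and are not adjusted over the members. Gene positions are from GENCODE M21 and RefSeq, which placed 21702 of 22810 genes. The 2 alleles of an embryo are a pair by design, and their deviations from the group means correlated by 0.0821 to 0.487. The members, lists and named genes (genes overlapping or near a member, called genes of each list, and the 5 nearest in paternal share) were chosen with earlier results of these data known. Alternatives were DESeq2 1.42.0, other size factors, filters, model terms, pseudocounts, margins and ratios, and leaving out each embryo.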

Additional observations from a re-analysis of the deposited data

Results flagged for a closer look

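The maternal level of Pnldc1 in reverse embryo 3, 10.7 CPM, lay far below the other 4 reverse embryos, which had 22.6 to 26.3 CPM, by Dixon's criterion for a group of 5. Of 12 reverse-cross groups of member values examined this way, chance flags about 1 in 20. The paternal level of Pnldc1 in the same embryo was also the lowest of its cross, at 10.01 CPM.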

How the results depend on the processing

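Airn stayed past the threshold in the paternal direction under all 19 alternatives to the parental fit. The count of biased genes was 178, and 306 with edgeR's other dispersion setting (legacy off), 391 with the replicate block that pairs the alleles of an embryo, 406 with no filter, 75 with 10 reads required in every embryo and 102 with filterByExpr. With the block, Igf2r and Airn stayed called and Pnldc1 stayed uncalled, while the count for strain rose from 1935 to 3212. Igf2r had a log2 fold change of 1.74 (adjusted p = 0.256) with terms for cross and parent and 1.75 (adjusted p = 0.183) with parent alone, both by edgeR and no longer past the threshold, and 1.77 to 2.39 with an embryo left out. Its strain value of 1.001 passed with no filter. The strain value of Pnldc1 turned to -0.18 with 1 library size per embryo. Between crosses the count of 9 genes became 28 (legacy off), 143 (no filter) and 136 (DESeq2). At a 1.5-fold margin 0 genes were equivalent by edgeR, Pnldc1 included (adjusted p = 0.489).

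With each embryo left out in turn, the count for strain was 1206 (without forward 1) to 2457, between crosses 3 (without forward 1) to 160 (without reverse 1), with 53 without reverse 3, and for equivalence 1642 (without forward 3) to 5657, with 2087 without forward 1 and 1832 without forward 2. The adjusted p for equivalence of Pnldc1 ran from 0.0267 to 0.129 (edgeR). The parental log2 fold change of Pnldc1 ran from -0.15 to 0.0037 (without reverse 5), and its mean log2 ratio by embryo from -0.18 to 0.00062. That of Igf2r ran from 1.99 to 2.79, with exact permutation p of 0.0313 to 0.0625. The value between crosses ran from -0.75 to 0.050 for Airn and from -0.56 to 0.083 for Igf2r. The cause of these changes was not tested. Without forward 1, the only library with leukocyte and macrophage markers above 57.1 CPM, Airn stayed called. An embryo held 27 to 116 reads of Igf2r or Pnldc1, which limits the precision of its share.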

Other observations

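The ligand and the other receptors of the IGF pathway were named after their values were seen. Igf2, the growth factor that IGF2R removes, had 31 paternal and 12 maternal reads, with more paternal reads in 4 of the 5 embryos that held at least 5 reads (log2 fold change 1.35 ± 1.02 SE, adjusted p = 1, edgeR). Igf1r, the signalling receptor, had 96 paternal and 168 maternal reads. Its parental log2 fold change of -1.26 did not pass (adjusted p = 0.377), while its strain term did (adjusted p = 0.0273, both edgeR). M6pr, the cation-dependent mannose 6-phosphate receptor, had 143 paternal and 133 maternal reads and lay within the 2-fold margin (adjusted p = 0.0823, edgeR). Zfp57, the zinc finger protein that maintains imprints, had 21 paternal and 45 maternal reads (log2 fold change -1.11 ± 0.73 SE, adjusted p = 0.995, edgeR).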
